A study of Mus musculus with 8 samples.

Results

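The genes described here are 34 that encode the enzymes and regulators of glycolysis (23 genes), the carriers of glucose and lactate (4 genes) and the enzymes of glycogen making and breakdown (7 genes), measured in hearts of Pus1 mutant and wild-type mice. They were chosen by name, with earlier results of these data known. Each was read from its brightest array probe, provided that probe cleared background in 4 or more of the 8 samples. All 34 met this, among 13711 named genes that did, and the chosen probe of every one was well above background in 8 of 8 samples and saturated in 0. RNA came from 4 hearts homozygous for the Pus1 mutation and from 4 wild-type hearts, all C57BL/6J mice backcrossed for 5 generations and aged 14 to 16 weeks. On each of 4 Agilent 2-colour arrays a mutant heart was set against a wild-type heart of its own sex, with females on arrays 1 and 2 and males on arrays 3 and 4. The dyes were swapped within each sex, so that mutant RNA carried Cy5 on arrays 1 and 3, and Cy3 on the other two. What was altered in Pus1 is not given by the labels, and the tissue is described as a frozen piece with both atrium and ventricle. Replicate 1 is the pair of hearts on array 1, and so on.

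Glycolysis splits glucose into pyruvate and yields ATP without oxygen, and lactate dehydrogenase then turns pyruvate into lactate or lactate back into pyruvate. A healthy adult heart draws most of its ATP from fatty acid oxidation and also burns glucose and lactate, and its own glycogen is a reserve that is drawn on under sudden load or low oxygen. Pus1 is an enzyme that isomerises uridines of cytosolic and mitochondrial transfer RNAs into pseudouridine, and loss of human PUS1 causes a mitochondrial myopathy with lactic acidosis and sideroblastic anaemia. The comparison therefore bears on whether the RNAs of the sugar-burning route differ between the genotypes.

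Pus1 itself was measured by 1 probe, with normalized log2 intensities (the log2 brightness of the probe in a sample after normalization, called its level here) of 7.07, 7.56, 7.24 and 7.13 in mutant replicates 1 to 4, against 9.22, 9.23, 8.92 and 9.01 in wild-type replicates 1 to 4. All mutant values lay below all wild-type values, and the log2 ratio of mutant over wild type, fitted in limma beside a term for the dye, was -1.85 (95% confidence interval -2.20 to -1.50, n = 4 arrays), which matches the labels. Even so its limma p of 7.67e-05 gave an adjusted p of 1.00 over 21823 features, so 4 arrays resolve single genes poorly and a missed threshold does not show that a level was alike. Of all probes, 44.7% to 54.6% were detected above background in mutant samples and 46.3% to 53.8% in wild-type samples. The 6 genes listed as ventricular and the 6 listed as atrial myocyte markers were all measured, and the pieces differed in atrial content. The summed atrial markers, in log2 intensity, ran over 14.18 to 19.05 in mutant hearts and 13.63 to 17.53 in wild-type hearts. Of these markers, Myl7 was well above background in 5 of 8 samples, Sln in 6 and the others in 8. The atrial markers' median log2 ratio was -1.13, 1.47, 0.32 and 3.39 on arrays 1 to 4. In bulk tissue, fewer cells of a type and less RNA per cell cannot be told apart.

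No glycolysis, transport or glycogen gene passed the genotype test. The call rate over all features was 0% at an adjusted p under 0.05 (0 of 34 members and 0 of 21823 features, limma with Benjamini-Hochberg adjustment, adjusted p 1.00 for each member) and 1.03% at an unadjusted p under 0.05 (1 of 34 members, Pfkfb1). Fitted log2 ratios of mutant over wild type ran from -0.30 for Pfkfb1 to 0.26 for Gbe1, which are folds of 0.814 to 1.20. With Bpgm set apart, no member's own 95% interval went below -0.58 (Pfkfb1) or above 0.60 (Gbe1), before any allowance for the number of genes. The members lay slightly above the other features: 26 of 34 fitted ratios were positive, against 44.6% of all features, and their median was 0.10, against -0.01 over all features. The median of the members was 0.12, -0.02, 0.12 and 0.06 on arrays 1 to 4, so array 2 did not share it. Because the list was drawn up with results of these data known, no test was run on that median.

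By role, 18 of 23 glycolysis genes (median 0.11), 4 of 4 carriers (median 0.15) and 4 of 7 glycogen genes (median 0.03) had positive fitted ratios. The glycolysis and glycogen medians leaned on single pairs of hearts, while that of the carriers ran from 0.13 to 0.17 without 1 replicate. Without replicate 4 the median of all members was 0.065 and that of the glycolysis genes 0.065. The glycogen median was 0.017, 0.18, 0.11 and 0.0016 without replicates 1 to 4, so the order of the roles was not settled. Ratios positive on all 4 arrays were seen for 3 members, Gpi1, Ldha and Slc16a3, against 2.34% of all features. Ratios negative on all 4 arrays were seen for 0 members, against 2.55% of all features. Of the 33 members with values in all 8 samples, 0 had all mutant levels above all wild-type levels (0.349% of all features) and 0 had all below (0.358%).

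**Figure D1:**
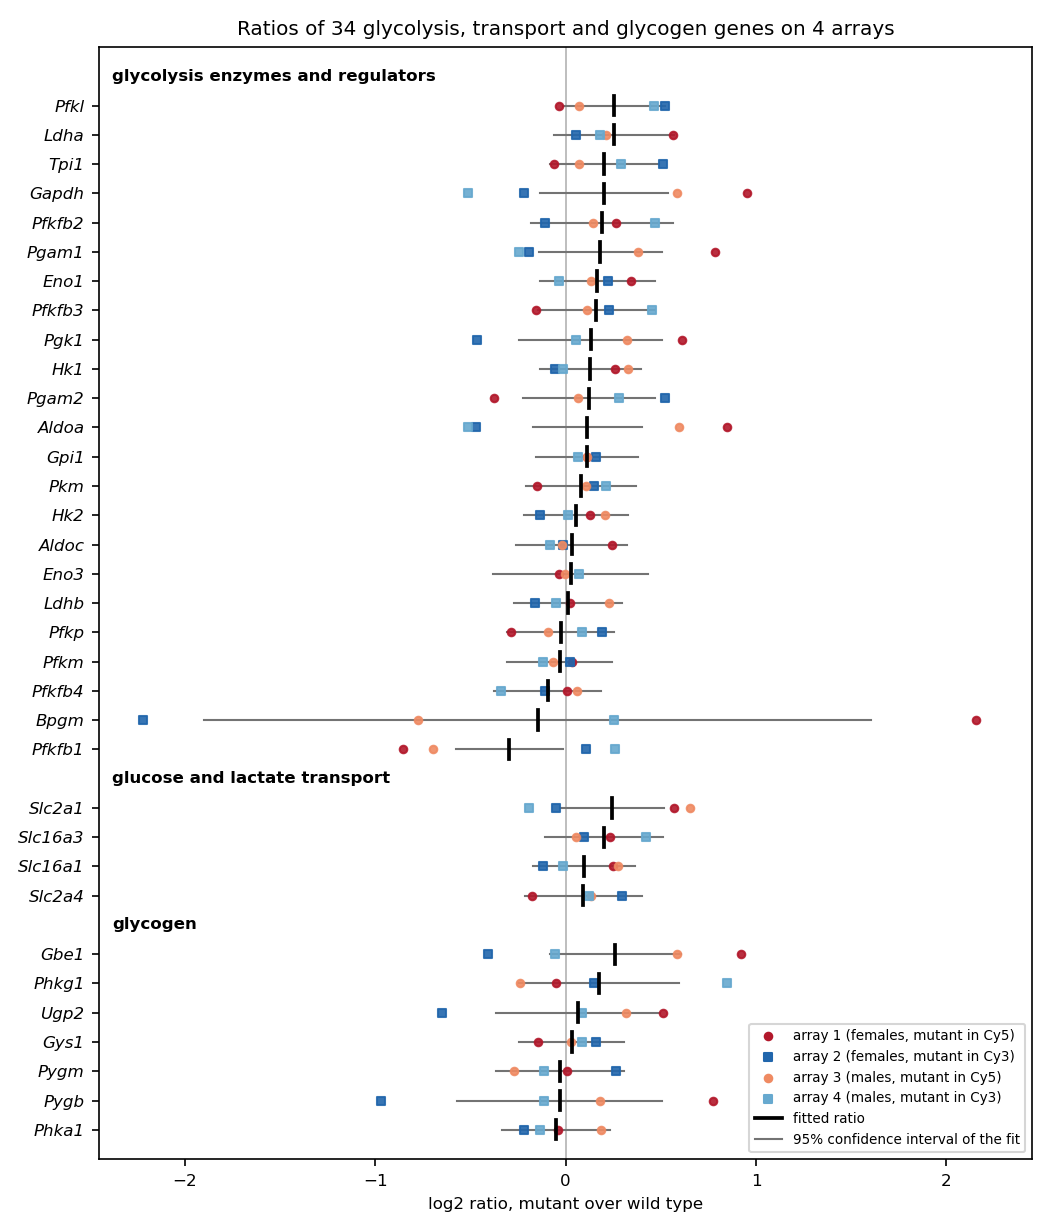
Log2 ratio of mutant over wild type (horizontal axis) for each of the 34 genes (rows, by role and fitted ratio), with 1 point per array, the fitted ratio as a black bar and its 95% confidence interval as a grey line. Points of Bpgm spread from -2.22 to 2.16, and the interval of Pfkfb1 alone leaves 0 out, before adjustment for the number of genes.

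The sequences before the transcription starts of the 3 genes with positive ratios on all 4 arrays are shown because Ldha and Slc16a3 encode the last enzyme and the export carrier of the lactate route, and Gpi1 an early step of glycolysis. They are the 250 bases before the start, from RefSeq on GRCm38.p6, 5′ to 3′ on the gene's strand, with the letters ACGTG, on either strand, in capitals. ACGTG is the core of the element bound by hypoxia-inducible factors, and it also lies inside CACGTG, the E-box bound by Myc-family and other helix-loop-helix factors. Gpi1 lies at chr7:34230337-34230586 on the minus strand, Ldha at chr7:46845554-46845803 on the plus strand and Slc16a3 at chr11:120948817-120949066 on the plus strand.
Gpi1: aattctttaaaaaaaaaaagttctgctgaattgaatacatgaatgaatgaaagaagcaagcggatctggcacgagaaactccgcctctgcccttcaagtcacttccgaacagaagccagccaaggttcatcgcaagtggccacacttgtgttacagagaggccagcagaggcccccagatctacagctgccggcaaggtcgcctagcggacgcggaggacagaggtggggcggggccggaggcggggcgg
Ldha: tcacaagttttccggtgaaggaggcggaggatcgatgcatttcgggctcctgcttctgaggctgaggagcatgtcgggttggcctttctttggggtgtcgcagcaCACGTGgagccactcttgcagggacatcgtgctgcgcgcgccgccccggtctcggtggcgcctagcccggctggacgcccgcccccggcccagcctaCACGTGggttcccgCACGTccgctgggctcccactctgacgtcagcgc
Slc16a3: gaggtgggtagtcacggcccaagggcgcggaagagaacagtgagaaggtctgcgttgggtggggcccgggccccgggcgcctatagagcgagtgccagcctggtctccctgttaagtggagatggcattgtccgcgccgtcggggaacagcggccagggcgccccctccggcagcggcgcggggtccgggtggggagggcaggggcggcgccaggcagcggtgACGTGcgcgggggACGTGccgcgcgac

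Read on both strands, ACGTG matched 5 times in this Ldha window, 4 of them inside 2 copies of CACGTG, and 2 times in the Slc16a3 window, with no CACGTG there. The Gpi1 window held 0 matches, as did a second RefSeq window of Ldha. Over all 32851 RefSeq windows of this length, 16.6% held ACGTG and 6.02% held CACGTG. Of the 51 windows of 33 members, 19 held ACGTG (37.3%) and 5 held CACGTG (9.80%). RefSeq windows were matched by symbol for every member except Slc2a4. These are letter matches in a window and not binding sites.

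The first steps of glycolysis showed small ratios. Hexokinase traps glucose as glucose 6-phosphate, and the fitted ratio was 0.13 for Hk1, its broadly expressed form, and 0.05 for Hk2, the insulin-responsive muscle form. Gpi1, which turns glucose 6-phosphate into fructose 6-phosphate, had the smallest SD of its ratios among the members (0.04), with array ratios of 0.11, 0.16, 0.11 and 0.06. Its levels were 16.63, 16.41, 16.55 and 16.41 in mutant hearts, against 16.51, 16.25, 16.44 and 16.35 in wild-type hearts. The mutant heart was the higher one on each array, yet the groups overlapped, and the fitted ratio was 0.11 (95% interval -0.15 to 0.38). Gpi1 is named for its sign pattern, after its values were seen.

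Phosphofructokinase makes fructose 1,6-bisphosphate and is the main control point of the pathway. Pfkm, the muscle subunit, had a fitted ratio of -0.03 and Pfkp, the platelet subunit, one of -0.03. Pfkl, the liver subunit, had levels of 10.88, 10.68, 10.74 and 10.87 in mutant hearts and 10.92, 10.16, 10.67 and 10.40 in wild-type hearts. The wild-type hearts of replicates 2 and 4, both in Cy5, were low and the other 6 samples lay together, so the groups overlapped. The array ratios of Pfkl were -0.03, 0.52, 0.07 and 0.47. Its fitted ratio was 0.26 (95% interval -0.01 to 0.52) beside a dye term of -0.24.

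The bifunctional enzymes Pfkfb1 to Pfkfb4 make and remove fructose 2,6-bisphosphate, the strongest activator of phosphofructokinase. Pfkfb1, the form of liver and skeletal muscle, was the member with the smallest p. Its levels were 10.55, 10.85, 10.83 and 10.99 in mutant hearts, against 11.40, 10.75, 11.53 and 10.74 in wild-type hearts. The wild-type hearts of replicates 1 and 3 were high, and those of replicates 2 and 4 lay within the mutant range. Its array ratios, -0.85, 0.11, -0.70 and 0.26, were negative on both arrays with the mutant in Cy5 and positive on both with the mutant in Cy3. The fit assigned -0.48 to the dye and -0.30 to the genotype (95% interval -0.58 to -0.02, limma adjusted p 1.00). Pfkfb2, the heart form that insulin signalling activates by phosphorylation, had a fitted ratio of 0.19, Pfkfb3, a form induced by low oxygen, one of 0.16, and Pfkfb4 one of -0.09.

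A pattern that followed the dye orientation was plain for 2 genes of the middle steps. Aldolase cleaves fructose 1,6-bisphosphate, and Aldoa, the muscle form, had array ratios of 0.85, -0.47, 0.59 and -0.51. Gapdh, the dehydrogenase that makes NADH, had 0.95, -0.22, 0.59 and -0.51. Both were positive exactly where the mutant was in Cy5, as were 5 of the 7 Gapdh probes. Their dye terms were 0.61 and 0.57 log2 units of Cy5 over Cy3, and what was left for the genotype was 0.11 for Aldoa and 0.20 for Gapdh. A dye term with unadjusted p under 0.05 was found for 6 of 34 members (Pfkfb1, Aldoa, Gapdh, Pgam1, Slc2a1 and Gbe1), against 9.87% of all features. The 6 genes listed as ventricular myocyte markers encode abundant contractile proteins, not all of them confined to the ventricle. Of these genes, 4 had probes saturated in 3 or 4 samples, all in Cy5, so their ratios are not exact. The other two were Tnnt2, with 0.66, -0.47, 0.59 and -0.31, the same alternation, and Tnni3, with -0.02, -0.19, 0.21 and -0.0010. Within each sex the atrial markers' median ratio also split by dye orientation, at -1.13 and 1.47 in females and 0.32 and 3.39 in males. In these 4 pairs the dye term thus cannot be told apart from uneven atrial content. Beside the dye term, the fitted genotype ratios of all 6 atrial markers were positive (median 1.05), against 44.6% of all features. Uneven atrial content therefore cannot be told apart from the genotype either. The part of dye or atrial content in the members' ratios was not tested.

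Aldoc, the brain aldolase, stood at 0.03. Tpi1, which interconverts the 2 triose phosphates, had levels of 15.44, 15.47, 15.55 and 15.57 in mutant hearts and 15.49, 14.95, 15.48 and 15.28 in wild-type hearts. The mutant hearts lay within a narrow band, while the wild-type heart of replicate 2 was low. The fitted ratio of Tpi1 was 0.20 (95% interval -0.08 to 0.49). Pgk1, which makes the first ATP of the pathway, had array ratios of 0.61, -0.47, 0.32 and 0.06 and a fitted ratio of 0.13, and the mutases Pgam1 (broad) and Pgam2 (muscle) had 0.18 and 0.12. The enolases Eno1 (broad) and Eno3 (muscle) had 0.17 and 0.03, where Eno3 rests on 3 arrays because its spot on array 2 was not uniform. Pkm, the pyruvate kinase that makes the second ATP, had 0.08.

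Lactate dehydrogenase is a tetramer of Ldha and Ldhb subunits, of which Ldha prevails in skeletal muscle and Ldhb in heart. Ldha had levels of 16.76, 16.19, 16.50 and 16.41 in mutant hearts, against 16.19, 16.13, 16.29 and 16.23 in wild-type hearts. The mutant heart was higher on each array, and only the mutant heart of replicate 2 fell inside the wild-type range. The array ratios were 0.57, 0.06, 0.21 and 0.18, and the fitted ratio was 0.25, a fold of 1.19 (95% interval -0.06 to 0.57). Ldhb had a fitted ratio of 0.01 (95% interval -0.27 to 0.29), with array ratios of 0.02, -0.16, 0.23 and -0.05.

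**Figure D2:**
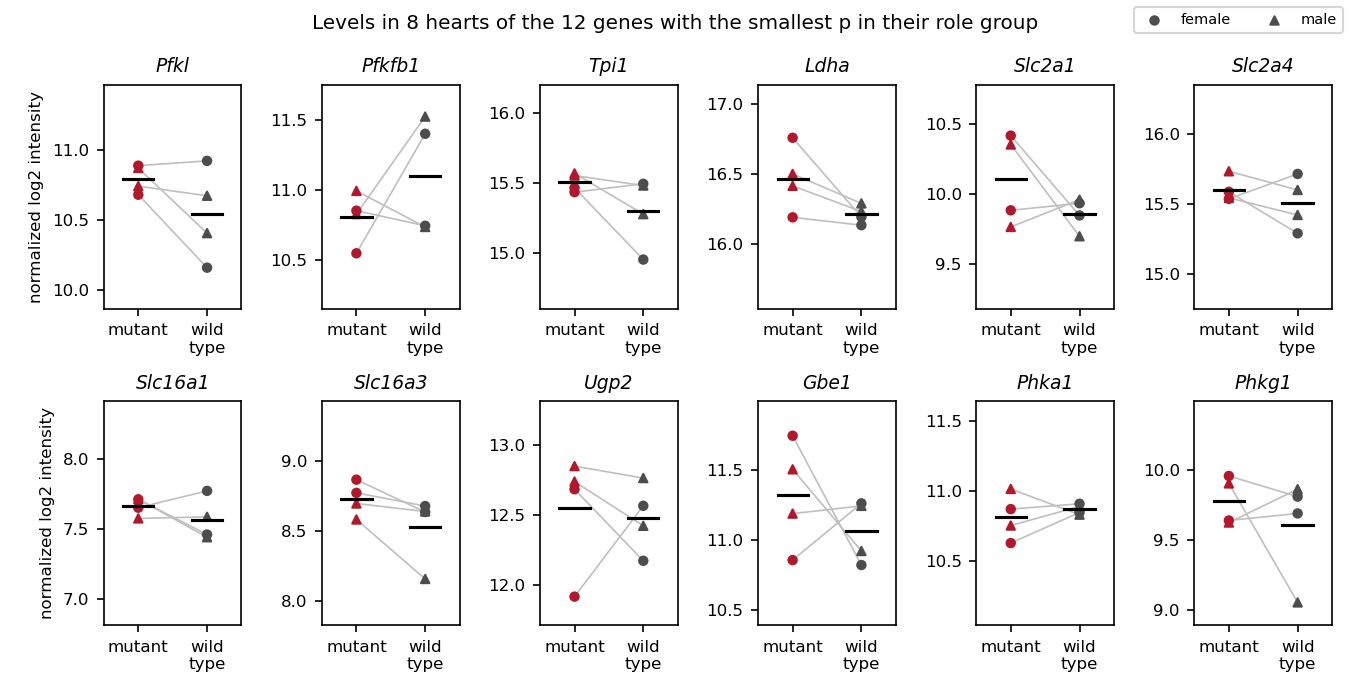
Normalized log2 intensity (vertical axis, each panel spanning the same range) in mutant hearts (left, red) and wild-type hearts (right, grey) of the 12 genes with the smallest p in their role group. Circles are females, triangles males, grey lines join the hearts of one array, and black bars are group means (n = 4). Groups overlap in every panel, and the 4 lines of Ldha and of Slc16a3 all slope down toward wild type.

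Glucose enters cardiac muscle through Slc2a1 (GLUT1), which works without insulin, and Slc2a4 (GLUT4), which insulin brings to the surface. Slc2a1 had levels of 10.41, 9.88, 10.35 and 9.76 in mutant hearts, against 9.84, 9.93, 9.70 and 9.96 in wild-type hearts. The high mutant hearts were replicates 1 and 3, both labelled with Cy5, and the other mutant hearts lay within the wild-type range. The fitted ratio was 0.25 (95% interval -0.03 to 0.52) beside a dye term of 0.37. Slc2a4 had levels of 15.53, 15.58, 15.73 and 15.54 in mutant hearts, against 15.71, 15.29, 15.60 and 15.42 in wild-type hearts. These overlapped, and its fitted ratio was 0.09 (95% interval -0.21 to 0.40).

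Lactate crosses the membrane with a proton through Slc16a1 (MCT1), which mostly serves uptake in heart, and Slc16a3 (MCT4), the low-affinity export form of glycolytic cells. Slc16a3 had levels of 8.87, 8.78, 8.70 and 8.59 in mutant hearts, against 8.64, 8.68, 8.64 and 8.16 in wild-type hearts. Only the mutant heart of replicate 4 lay inside the wild-type range, which its own partner, the lowest of the 8 hearts, extended downward. The array ratios were 0.23, 0.09, 0.06 and 0.42, and the fitted ratio was 0.20, a fold of 1.15 (95% interval -0.11 to 0.51). Slc16a1 had levels of 7.71, 7.65, 7.72 and 7.58 in mutant hearts, against 7.46, 7.77, 7.44 and 7.59 in wild-type hearts. The wild-type heart of replicate 2 was the highest of the 8, and the fitted ratio was 0.10 (95% interval -0.17 to 0.37).

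Glycogen is built from UDP-glucose, which Ugp2 makes, by the synthase Gys1 and the branching enzyme Gbe1. It is broken down by the phosphorylases Pygm (muscle) and Pygb (brain), which phosphorylase kinase, with its subunits Phka1 and Phkg1, switches on. Gbe1 had levels of 11.74, 10.86, 11.50 and 11.19 in mutant hearts, against 10.82, 11.26, 10.92 and 11.24 in wild-type hearts. The mutant hearts of replicates 1 and 3 were high and that of replicate 2 lay near the lowest wild-type heart. Its array ratios were 0.92, -0.41, 0.58 and -0.06, its dye term 0.49 and its fitted ratio 0.26 (95% interval -0.08 to 0.60), the highest fitted ratio among the members.

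Ugp2 had levels of 12.68, 11.92, 12.74 and 12.85 in mutant hearts, against 12.17, 12.57, 12.42 and 12.76 in wild-type hearts. The mutant heart of replicate 2 was the lowest of the 8, the groups overlapped, and the fitted ratio was 0.07 (95% interval -0.37 to 0.50). Gys1 stood at 0.03. Pygm and Pygb both stood at -0.03, Pygm with array ratios of 0.01, 0.26, -0.27 and -0.11 and Pygb with the wider 0.78, -0.97, 0.18 and -0.11.

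Phkg1, the catalytic subunit of phosphorylase kinase in muscle, lies on chromosome 5, as Pus1 does. It had levels of 9.64, 9.95, 9.62 and 9.90 in mutant hearts, against 9.69, 9.81, 9.86 and 9.05 in wild-type hearts. The wild-type heart of replicate 4 was low and the other 7 samples overlapped. The fitted ratio of Phkg1 was 0.18 (95% interval -0.24 to 0.60). Phka1, its regulatory subunit in muscle, had levels of 10.87, 10.63, 11.02 and 10.75 in mutant hearts, against 10.91, 10.85, 10.83 and 10.89 in wild-type hearts. The mutant heart of replicate 3 lay above the narrow wild-type range, those of replicates 2 and 4 below it and that of replicate 1 inside it, and the fitted ratio was -0.05 (95% interval -0.34 to 0.23).

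Bpgm stood apart from the other members, as was seen only after its values were known. It makes 2,3-bisphosphoglycerate, the compound that lowers the oxygen affinity of haemoglobin, and is known as a red-cell enzyme. Its levels were 13.74, 11.60, 10.80 and 11.68 in mutant hearts, against 11.58, 13.83, 11.57 and 11.43 in wild-type hearts. One heart of each genotype, mutant replicate 1 and wild-type replicate 2, was far above the rest, both of them females on different arrays. The array ratios were 2.16, -2.22, -0.77 and 0.25, with an SD of 1.84, against a median SD of 0.22 over the members, and the fitted ratio was -0.15 (95% interval -1.90 to 1.61).

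On arrays 1 and 2 the erythroid markers moved with Bpgm. Of the 9 listed, 7 were measured, and 3 of these, Hba-a1, Hba-a2 and Hbb-bt, were saturated in 2 to 4 samples, all in Cy5, among them the 2 hearts highest in Bpgm. The markers never saturated were the beta globins Hbb-b1 and Hbb-b2, Alas2, the first enzyme of haem synthesis in red cells, and Slc4a1, the anion exchanger of the red-cell membrane, a selection made after the values were seen. Their median ratios were 2.53, -2.30, -1.01 and 0.19 on arrays 1 to 4, against 2.50, -2.35, -0.92 and -0.0021 over all 7. Slc4a1 parted from Bpgm on array 4, with 2.02 against 0.25. The summed log2 intensity of the 4 unsaturated markers was 18.61, 16.06, 15.25 and 15.85 in mutant hearts, against 16.19, 18.63, 16.05 and 15.81 in wild-type hearts. The 2 hearts highest in Bpgm were also the 2 highest in this sum, mutant replicate 3 was the lowest in both, and the other 5 lay close together in a different order. With the saturated probes included, the 2 highest hearts were the same and the lowest was mutant replicate 2, at 17.96. The part of red-cell RNA in the Bpgm values was not tested. The mutases Pgam1 and Pgam2, whose protein family includes Bpgm, had no such ratios, with 0.79, -0.19, 0.38 and -0.25 for Pgam1 and -0.37, 0.52, 0.06 and 0.28 for Pgam2.

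**Figure D3:**
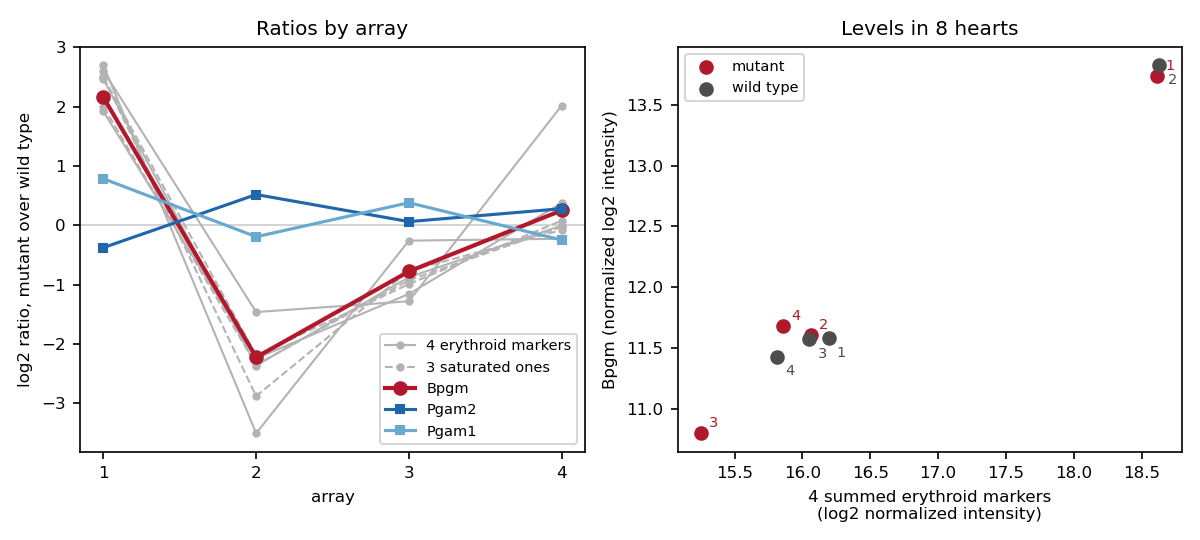
Left, log2 ratio of mutant over wild type on arrays 1 to 4 for Bpgm, the 7 measured erythroid markers (dashed where a probe was saturated in some samples) and the related mutases Pgam2 and Pgam1. Right, normalized log2 intensity of Bpgm against the log2 of the summed intensity of the 4 unsaturated markers in each heart, numbered by replicate; mutant replicate 1 and wild-type replicate 2 lie at the upper right.

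Several genes had more than 1 probe, and the probes did not always tell the same story. Of the members, 24 had 1 kept probe and 10 had several, which gave 17 dimmer probes beside the ones used. Of these 17, 10 were positive on arrays 1 and 3 and negative on array 2. Tpi1 had such a pair, with -0.06, 0.51, 0.07 and 0.29 at its brightest probe and 0.93, -0.65, 0.40 and 0.16 at the other. The 3 Ldha probes also parted, with 1.04, -0.60, 0.45 and 0.14 at the second and -0.43, 0.57, -0.53 and 0.80 at the third. So the positive sign of Ldha on all 4 arrays held for its brightest probe and for neither of the others. Both Slc16a3 probes, in contrast, were positive on all 4 arrays, the second with 0.41, 0.05, 0.04 and 0.37. Gpi1 had 3 probes, and its dimmer ones ran from -0.06 to 0.23, with means of 0.07 each. Both were negative on at least 1 array, so its positive sign on all 4 arrays, too, held for the brightest probe only.

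Averaged over the 4 arrays, probes of one gene differed less, as means of 4 values tend to do whatever the reason. The means of the 7 Gapdh probes lay between 0.10 and 0.20, and those of the 3 Ldha probes were 0.25, 0.26 and 0.10. Of the 10 genes, 1 had probes with means of opposite sign, Pfkp, with -0.03 and 0.20. Among the 34 brightest probes, 14 were positive on arrays 1 and 3 and negative on array 2 (21.2% of all features), and 10 of these were negative on array 4 too (11.5% of all features).

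**Figure D4:**
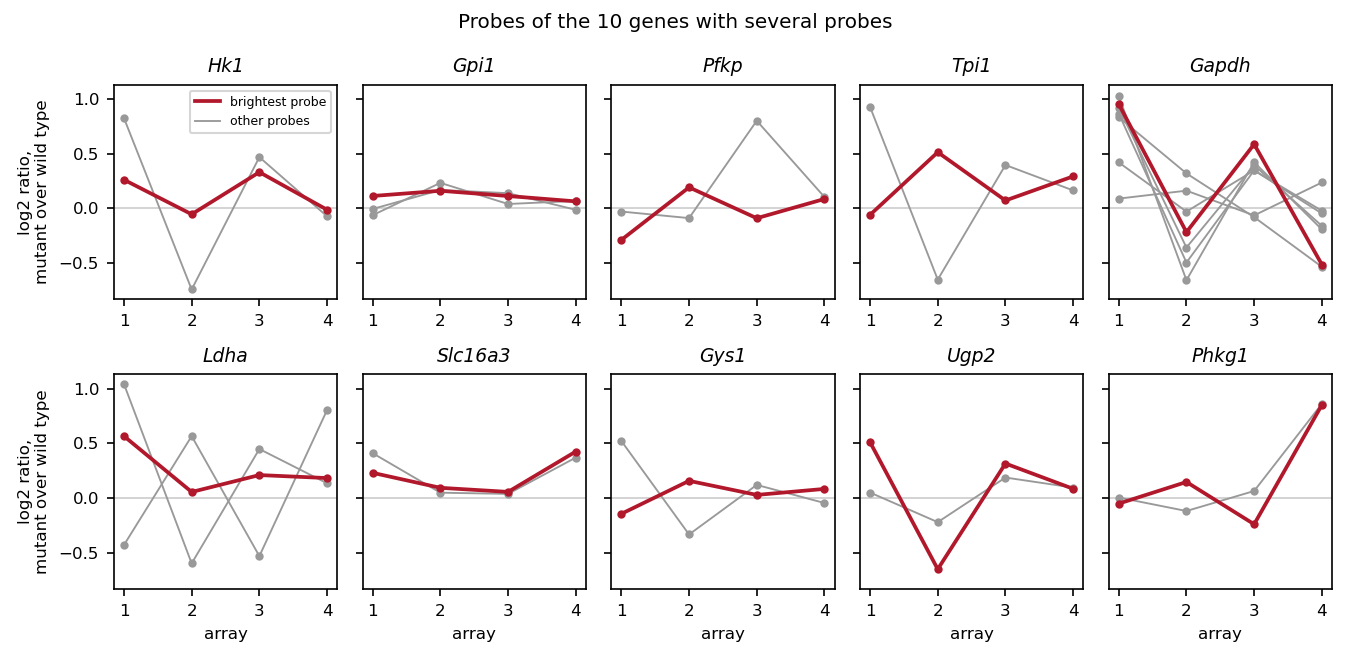
Log2 ratio of mutant over wild type (vertical axis) on arrays 1 to 4 for every kept probe of the 10 genes with several probes; the brightest probe is red and the others grey. Many grey lines alternate with the dye orientation, and the 2 probes of Slc16a3 run together above 0.

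Whether the genotype ratio differed between the sexes was asked with a female minus male term, which left 1 residual degree of freedom. Over all features 9.31% passed at an adjusted p under 0.05 (2031 features, 2005 of them with the higher ratio in females) and 16.6% at an unadjusted p under 0.05. That count depended on the setting and was 0 under 5 of the 10 alternatives, among them the fit without the dye term. Of the 34 members 0 passed either threshold, and the smallest adjusted p of a member was 0.708, for Gapdh (limma). Member differences ran from -0.27 (Ugp2) to 0.33 (Gapdh). Within males, 3.34% of all features and 0 of 34 members passed at an adjusted p under 0.05, and within females 0.00916% and 0 of 34.

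The female minus male differences with the smallest p did not pass the test. For Gapdh the female ratios were 0.95 and -0.22 and the male ratios 0.59 and -0.51, a difference of 0.33 (SE 0.26, limma adjusted p = 0.708). For Pygm the female ratios were 0.01 and 0.26 and the male ratios -0.27 and -0.11, a difference of 0.32 (SE 0.26, limma adjusted p = 0.719). Both female Pygm ratios lay above both male ones, on 2 arrays per sex, and the share of all features in such an order was not counted. The part of uneven atrial content in this difference was not tested. The levels of Pygm were 14.70, 14.55, 14.68 and 14.61 in mutant hearts and 14.69, 14.29, 14.95 and 14.72 in wild-type hearts, so the wild-type hearts held most of the spread. Pfkfb3 differed by -0.25 (SE 0.26), with levels of 9.14, 9.77, 9.47 and 9.38 in mutant hearts and 9.29, 9.54, 9.36 and 8.92 in wild-type hearts. Eno1 differed by 0.23 (SE 0.26), with levels of 14.25, 14.12, 14.23 and 13.94 in mutant hearts and 13.91, 13.90, 14.10 and 13.97 in wild-type hearts. Phkg1 and Ugp2 differed by -0.26 and -0.27 (SE 0.30 each), and Slc2a4, Slc16a1 and Slc16a3 by -0.07, -0.07 and -0.08.

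Neighbouring genes of the pathways were taken from lists drawn up by name, with earlier results of these data known. They held 0 genes past the adjusted threshold in the genotype test over all 4 arrays. Within males Stbd1 passed (3.34% of all features did) and within females Pdk4 did (0.00916% of all features), as given below. For the counts of positive ratios that follow, the share over all features was 44.6%. Of 15 further glycolysis genes 9 were measured, 5 with a positive ratio. The smallest p were those of Ldhd (-0.18), the D-lactate dehydrogenase of mitochondria, and Galm (0.29), which interconverts the anomers of glucose. Of 9 further transport genes 7 were measured and 1 was positive, Tbc1d1 (0.26), a regulator of GLUT4 traffic, while Slc16a7 (MCT2) stood at -0.39. All 8 pentose phosphate genes were measured and 6 were positive (median 0.16), with the transketolase Tkt at 0.42 and the transaldolase Taldo1 at 0.20. Of 12 genes known to respond to hypoxia, 8 were positive (median 0.06). The one with the smallest p, Ankrd37, an ankyrin-repeat gene induced by hypoxia, was positive on every array at 0.34, 0.36, 0.51 and 0.36 (fitted 0.39, limma adjusted p 1.00), while Ddit4, an inhibitor of mTORC1 signalling, stood at -0.36.

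Of 19 further glycogen genes 16 were measured and 8 were positive, with 3 at an unadjusted p under 0.05, against 1.03% of all features. Stbd1, which tethers glycogen to membranes for its breakdown in lysosomes, had the lowest ratio of the pathway lists. Its levels were 6.67, 9.15, 7.12 and 8.99 in mutant hearts, against 9.64, 9.04, 9.60 and 9.58 in wild-type hearts. The mutant hearts of replicates 1 and 3 were far below the other 6 samples, and both were in Cy5. The array ratios of Stbd1 were -2.97, 0.11, -2.49 and -0.59, with a dye term of -1.25. The fitted ratio was -1.48 (SE 0.17, limma adjusted p 1.00), and the gene lies on chromosome 5, as Pus1 does. In the fit with the sex term, its ratio was -1.54 within males (limma adjusted p = 0.0351) and -1.43 within females (limma adjusted p = 0.0566). That fit also held the dye term and left 1 residual degree of freedom. Ppp1r3c, a subunit that targets phosphatase to glycogen, had ratios of 0.71, -0.23, 0.86 and 0.13 (fitted 0.37). In the sex comparison 1 of the 16 passed, Ppp1r3b, another such subunit, against 9.31% of all features. It was chosen here after its values were seen. Its ratios were 1.15 and 0.56 in females and -0.95 and -0.32 in males (difference 1.49, limma adjusted p = 0.0192). No feature passed that test under 5 of the 10 alternatives. Among the cell markers, 4 of 6 atrial markers (Nppa, Myl4, Myl7 and Sln) and 2 of 3 measured adipocyte markers (Cfd and Retn) passed it too, with differences of -2.92 (Myl4) to 1.35 (Retn), and their part in the Ppp1r3b difference was not tested.

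At the branch where pyruvate enters the mitochondria, 5 of 5 listed genes were measured. Txnip, an arrestin-like protein that restrains glucose uptake, had levels of 12.12, 12.78, 12.37 and 13.88 in mutant hearts, against 13.32, 13.57, 13.30 and 13.87 in wild-type hearts. The mutant hearts of replicates 1 to 3 lay below all wild-type hearts, the pair of replicate 4 was level, and the fitted ratio was -0.73 (SE 0.17, limma adjusted p 1.00). Pdk4, the kinase that shuts pyruvate dehydrogenase, had ratios of -1.90, -2.13, -0.35 and -0.13 (fitted -1.13). In the fit with the sex term, its ratio was -2.01 within females (limma adjusted p = 0.0383) and -0.24 within males (limma adjusted p = 0.806). Its female minus male difference of -1.78 passed the adjusted threshold (limma, adjusted p = 0.00436), in the same comparison with the atrial and adipocyte markers named above, whose part in the Pdk4 difference was not tested either.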

How the data were processed

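Gene lists and members were chosen with earlier results of these data known. A marker of the erythroid list is not reported here. Per the file headers, all 4 arrays lay on 1 slide and were read by the authors in 1 scan, which left no batch to test, and the grid used mouse build mm9; the submitters' processing notes name Agilent Feature Extraction 10.7.3.1. The deposited intensity values used were, per the file headers, the raw median brightness of spot and local background. Processed intensity values (per the file headers, background-subtracted and dye-normalized) and the authors' deposited matrix of log2 values were alternatives. How the matrix was normalized is not given in the sources used here. Columns of the matrix had medians of -0.0017, -0.0032, 0.064 and -0.010 for mutant and 0.0056, 0.013, -0.0067 and -0.021 for wild-type samples of arrays 1 to 4, each probe was centred on a median of 0, and mutant minus wild-type values correlated with the log2 ratios of processed signals at 0.991 to 0.998 across probes.

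Each array held 62976 spots, 3671 of them controls. Background was corrected by normexp (offset 50) and ratios were normalized by loess within arrays, with control and non-uniform spots at weight 0 and non-uniform spots then set missing, in limma 3.58.1 under R 4.3.3. Of 55681 probes, 27656 had 1 gene symbol through RefSeq (GRCm38.p6) and 28025 had none. Probes well above background in at least 4 of 8 samples (28528) gave 21823 features, with the brightest probe per gene. Ratios of mutant over wild type were fitted with a genotype and a dye term (2 residual degrees of freedom). The sex comparison added a female minus male term. P-values were 2-sided, adjusted over all 21823 features by the Benjamini-Hochberg method, and called under 0.05. Levels are separate channels after loess and Aquantile normalization, and no probe's level is set against another's. The fits were tested on simulated data.

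The array is the block, since the labels place both hearts of a pair on it. Deviations of paired samples from their genotype means correlated at -0.49, -0.11, -0.38 and 0.51 on arrays 1 to 4. Levels per sample or ratios per array are given, in each role, for the 4 members with the smallest p by genotype and the 3 with the smallest p by sex. For 2 genes per pathway list at least the fitted ratio is given. Animals are separate individuals per the labels, and their number limits the precision.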

Additional observations from a re-analysis of the deposited data

Results flagged for a closer look

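Levels of the members were checked for a sample far from the other 3 of its genotype, by the gap to its neighbour over the group's range against Dixon's 95% critical value. Of 66 groups of 4 tested, 4 exceeded it, where chance gives about 1 in 20. All 4 were wild-type hearts. For Bpgm, wild-type replicate 2 stood at 13.83 in normalized log2 intensity, against 11.43 to 11.58 in the other wild-type hearts. For Slc16a3, wild-type replicate 4 stood at 8.16, against 8.64 to 8.68. For Pgk1, wild-type replicate 1 stood at 13.83, against 14.06 to 14.10. For Gys1, wild-type replicate 2 stood at 12.05, against 12.36 to 12.41. The high mutant level of Bpgm in replicate 1, 13.74, did not exceed it, since the other mutant hearts spread from 10.80 to 11.68.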

How the results depend on the processing

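Under 16 alternatives 0 of 34 members passed the genotype test (lowest adjusted p of a member 0.994, limma), and under the 10 alternatives with a sex test 0 of 34 passed that test. Over all features the genotype count was 0 to 0 without any 1 replicate and 1, namely Pus1, under median centring, the sex by genotype term, and separate channels with no replicate block or with the array as a random replicate block. Both fits on separate channels thus called Pus1, with and without the pairing by array, and neither called a member. The female minus male count of 2031 became 0 with processed signals, the series matrix, median centring, no dye term, and separate channels with no replicate block, and 1242 when detection in 8 of 8 samples was required. The cause was not tested. With a replicate left out no residual degrees of freedom remained for it.

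The median of the members, 0.10, ranged over 0.065 to 0.114 without 1 replicate and was 0.201 under median centring, where the median of all features was 0.081. The members above the median of all features numbered 26 to 29. Fitted ratios kept their sign under all alternatives in 22 members, 21 of them positive and 1, Pfkfb1, negative. Of these 22, 15 moved by over 1.5 times without some replicate, the lowest values being 0.00032 for Pgk1, 0.0016 for Phkg1, 0.014 for Pgam2 and Pkm, 0.016 for Hk2 and Slc2a4 and 0.049 for Pfkfb2. The other 12 turned sign somewhere. Bpgm, at -0.15, was the farthest of them from 0, and the other 11 had fitted ratios of -0.09 to 0.07. Under median centring this gave 0.07 for Pfkm, 0.11 for Pfkp, 0.00039 for Pfkfb4, 0.086 for Pygm, 0.11 for Pygb and 0.094 for Phka1. With the series matrix it gave 0.036 for Pfkp, -0.013 for Ldhb and 0.011 for Pygm, and for Pfkp also 0.023 with processed signals and 0.085 as a mean over probes. Without 1 replicate, values spanned -0.066 to 0.0030 for Pfkm, -0.075 to 0.024 for Pfkp, -0.034 to 0.097 for Aldoc, -0.88 to 0.59 for Bpgm, -0.019 to 0.035 for Eno3, -0.041 to 0.062 for Ldhb, -0.011 to 0.075 for Gys1, -0.12 to 0.25 for Ugp2, -0.12 to 0.066 for Pygm, -0.24 to 0.18 for Pygb and -0.11 to 0.0032 for Phka1.

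For the female minus male differences, median centring moved the median of all features to -0.31, from -0.04, and gave -0.23 for Gapdh, -0.27 for Eno1 and -0.18 for Pygm, all above that median. The series matrix, with a median of -0.19, gave -0.73 for Gapdh, and processed signals gave 0.026 for Slc16a1. Without 1 replicate, values spanned -0.31 to 0.17 for Slc2a4, -0.33 to 0.17 for Slc16a3, -0.73 to 0.19 for Ugp2 and -0.70 to 0.19 for Phkg1.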
